A study of Mus musculus with 16 samples.

Results

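The 10 genes described here belong to the mammalian circadian clock, as its core loop and a direct output. They are Arntl, Clock, Per1, Per2, Per3, Cry1, Cry2, Nr1d1, Nr1d2 and Dbp, chosen by symbol from the 18480 entries of each expression file, and all 10 were present once. RNA was measured in 16 libraries from MC38 tumours, a mouse colon carcinoma line grown under the skin of mice. There were 4 groups of 4 libraries, named by the labels. These are exercise with anti-PDL1 (called the combination here), anti-PDL1 alone, exercise alone and control. Anti-PDL1 blocks the checkpoint ligand PD-L1, whereas PD-1, its receptor, is the target in the title of the series. Neither mouse strain, age, exercise protocol, antibody dose nor hour of collection is given in the labels used here, and nothing there ties each library to an animal of its own. P-values therefore measure only sample-to-sample spread, possibly technical, and for genes that cycle over the day an effect of the hour of collection and an effect of the group cannot be told apart.

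The clock is a feedback loop of transcription. The proteins of Arntl (also called Bmal1) and Clock bind as a pair to E-boxes and activate the Per and Cry genes, whose proteins return to the nucleus and inhibit that pair. A further loop runs through the nuclear receptors of Nr1d1 and Nr1d2, also known as REV-ERB alpha and beta. These repress Arntl at ROR elements and compete there with ROR activators. Dbp encodes an output factor that activates genes through D-boxes, where the protein of Nfil3 opposes it. In tissues with a running clock Arntl transcripts peak at the time of day at which Nr1d1 and Dbp are low.

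Values are FPKM, in which fragment counts are scaled by transcript length and library size, as deposited by the authors. The sum over all entries ran from 478672 to 529732 FPKM, and the genes at 1 FPKM or more numbered 11293 to 11873 in a library. Controls 1 and 2 lay farthest out on the first principal component, at 30.8 and 41.4. Control 2 also had a summed 261 FPKM of 4 skeletal muscle genes, against at most 8.79 in the other 15 libraries. The epithelial markers Epcam, Krt8 and Krt18 were near 0 in the 16 libraries, with maxima of 0.17, 0.2 and 0.18 FPKM. Of the same list, Cdh1 lay between 1.24 and 3.05 FPKM. Krt19 ran from 0.04 to 4.87 FPKM and was highest in controls 1 and 2, at 3.54 and 4.87.

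The promoters of several of these genes carry the letters of the clock's own binding motifs. Of the genes with at least 1 match to a motif through which the loop is known to act, 5 are shown. RefSeq windows of 300 bases on GRCm38.p6 were available for 9 of the 10 genes, from 250 bases before an annotated start to 50 after it. Searched on both strands were the E-box CACGTG, the related CACGTT, the D-box TTANGTAA, the ROR element (AA, any base, T, any base, then GGTCA) and the cAMP element TGACGTCA. None of these overlapped another in the windows printed. Capitals mark the matches, and all sequences run 5′ to 3′ on the strand of the gene.
Arntl, chr7:113207261-113207560, plus strand: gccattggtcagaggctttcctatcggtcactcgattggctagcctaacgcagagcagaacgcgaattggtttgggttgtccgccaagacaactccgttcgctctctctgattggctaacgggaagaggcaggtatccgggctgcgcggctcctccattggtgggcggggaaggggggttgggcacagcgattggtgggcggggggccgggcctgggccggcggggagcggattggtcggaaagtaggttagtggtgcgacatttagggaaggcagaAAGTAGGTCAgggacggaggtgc
Per1, chr11:69098699-69098998, plus strand: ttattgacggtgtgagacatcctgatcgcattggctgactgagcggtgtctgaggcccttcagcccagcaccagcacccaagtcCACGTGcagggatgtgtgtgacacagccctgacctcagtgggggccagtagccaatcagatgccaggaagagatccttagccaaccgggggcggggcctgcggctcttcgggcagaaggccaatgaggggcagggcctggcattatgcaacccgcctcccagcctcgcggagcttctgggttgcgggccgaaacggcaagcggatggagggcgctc
Per3, chr4:151044616-151044915, minus strand: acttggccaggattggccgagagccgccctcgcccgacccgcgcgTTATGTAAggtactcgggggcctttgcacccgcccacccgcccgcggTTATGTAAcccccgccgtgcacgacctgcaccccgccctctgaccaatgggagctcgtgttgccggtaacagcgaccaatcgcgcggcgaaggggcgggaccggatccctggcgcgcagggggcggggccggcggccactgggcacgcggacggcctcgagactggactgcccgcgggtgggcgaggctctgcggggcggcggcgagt
Cry1, chr10:85185005-85185304, minus strand: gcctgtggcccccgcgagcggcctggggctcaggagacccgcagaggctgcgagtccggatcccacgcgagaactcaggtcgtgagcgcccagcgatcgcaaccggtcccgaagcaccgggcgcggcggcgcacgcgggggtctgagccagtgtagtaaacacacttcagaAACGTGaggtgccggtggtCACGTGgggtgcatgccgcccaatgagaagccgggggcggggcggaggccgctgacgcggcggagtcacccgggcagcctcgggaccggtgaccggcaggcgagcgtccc
Nr1d1, chr11:98775328-98775627, minus strand: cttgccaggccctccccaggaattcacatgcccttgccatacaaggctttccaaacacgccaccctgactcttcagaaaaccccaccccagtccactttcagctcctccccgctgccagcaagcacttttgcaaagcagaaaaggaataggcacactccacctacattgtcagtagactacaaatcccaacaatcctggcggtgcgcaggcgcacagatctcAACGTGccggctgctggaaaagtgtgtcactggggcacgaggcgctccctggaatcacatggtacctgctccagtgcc

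In the Arntl window the ROR element AAGTAGGTCA begins 27 bases after the start, the element type through which the Nr1d proteins repress. An E-box stands 166 bases before the start of Per1 and 60 before that of Cry1. Arntl and Per1 each had another window, at a different annotated start, which held none of the motifs and is not printed. Positions here refer to the start of the printed window. Per3 holds the D-box TTATGTAA at 205 and at 158 bases before its start. The CACGTT form, read as AACGTG, stands 79 bases before the start of Cry1 and 28 before that of Nr1d1. In the window of Cry2, which is not printed, it stands 166 bases before the start. The windows of Clock, Nr1d2 and Dbp held none of the motifs. Among 32851 RefSeq windows of the same length, 7.15% held CACGTG, 4.69% CACGTT, 2.32% the D-box, 0.606% the ROR element and 1.79% the cAMP element. Counted by gene in the same order, 2, 3, 1, 1 and 0 of the 9 held each motif. The shares of 27025 genes were 8.09%, 5.44%, 2.72%, 0.714% and 2.03%. These matches are a description of the letters in a short window.

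Levels per kilobase could be compared between the 10 genes. Over the 16 libraries Nr1d1 was the highest, at 27.4 ± 10.6 FPKM (SD, n = 16), followed by Per1 at 21.9 ± 9.64. Arntl, Nr1d2 and Dbp came next at 14.7 ± 1.97, 13.7 ± 1.70 and 12.3 ± 4.87 FPKM. Cry1 at 9.34 ± 1.40 and Cry2 at 8.15 ± 0.964 FPKM followed, then Per3 at 5.56 ± 1.19 and Clock at 4.79 ± 0.616. Per2 was the lowest at 2.55 ± 0.987 FPKM and lay below Clock in 16 of 16 libraries. Of the 9 neighbouring pairs in this order, Cry2 over Per3 and Clock over Per2 differed by more than the sum of their SDs, and the other 7 did not. The genes also differed in how much they varied within a group. After the group means were removed, the SD of log2(FPKM + 1) was 0.57 for Nr1d1, 0.55 for Dbp and 0.53 for Per1. These lay at the 96.2, 95.8 and 95.4 percentile of 11868 tested genes. For Cry2, Clock and Nr1d2 the SD was 0.12, 0.14 and 0.15, at the 16.6, 25.4 and 31.7 percentile.

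**Figure D1:**
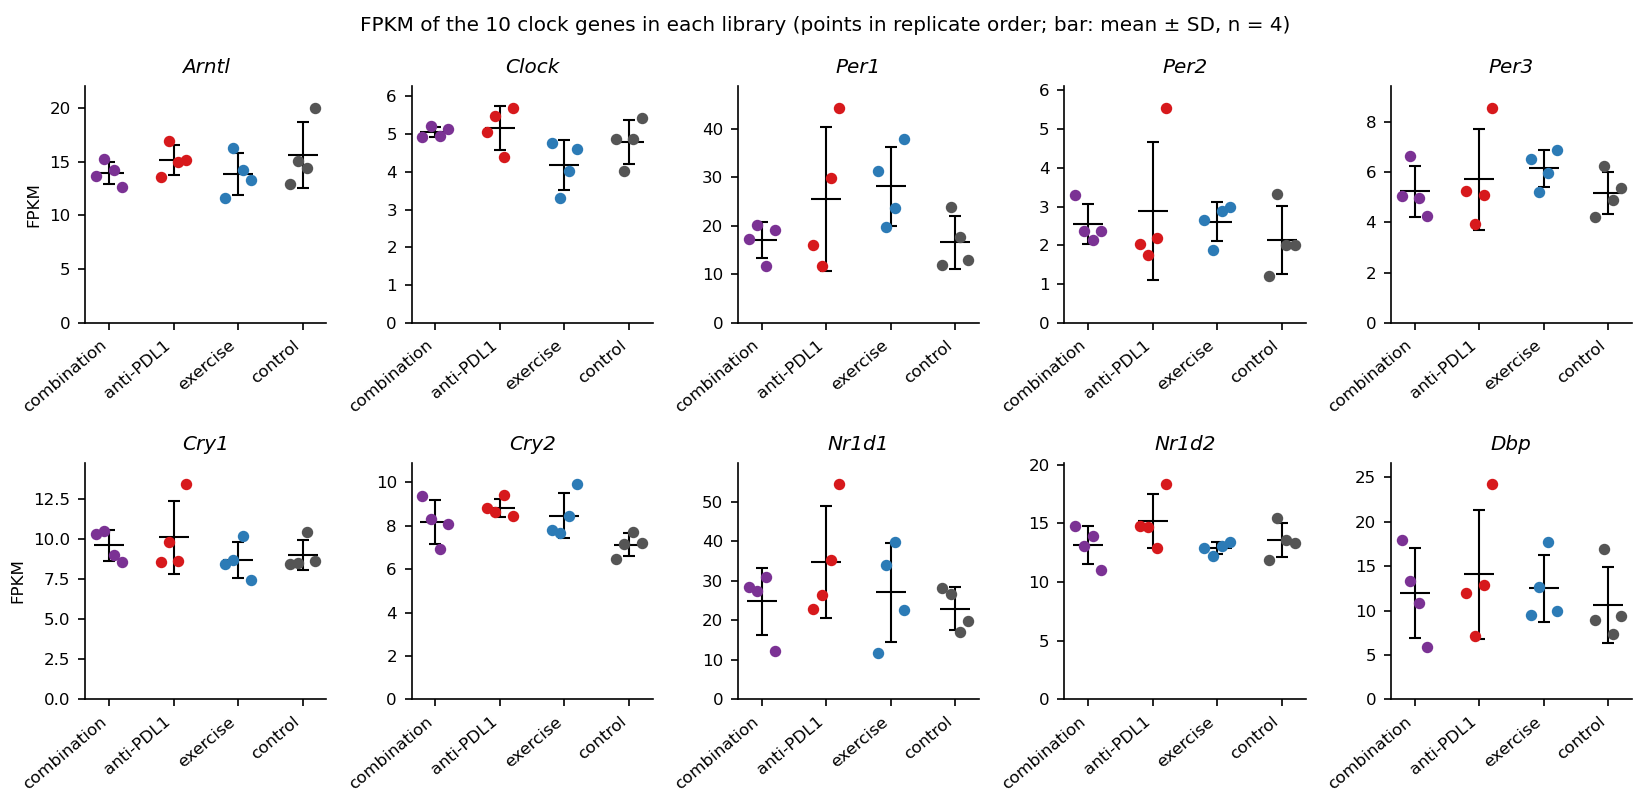
FPKM (vertical axis, from 0) of the 10 clock genes in each library by group, with points in the order of the replicate numbers and bars for the mean ± SD of 4 libraries. Anti-PDL1 library 4 stands at the top of the plot for 8 genes, while Cry2 is the gene whose anti-PDL1 points (8.45 to 9.4 FPKM) all lie above its control points (6.46 to 7.71 FPKM).

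The activators come first. Arntl (chromosome 7, 113178471 to 113314126, all gene positions being RefSeq's on GRCm38.p6) measured 13.7, 15.2, 14.2 and 12.7 FPKM in the combination, 13.59, 16.97, 14.97 and 15.15 in anti-PDL1, 11.6, 16.2, 14.3 and 13.3 in exercise, and 12.94, 15.04, 14.46 and 20.05 in control tumours. Control 4 was the highest library, and the groups overlapped. Its partner Clock (chromosome 5, 76209868 to 76305603) measured 4.93, 5.22, 4.94 and 5.12 FPKM in the combination, 5.04, 5.48, 4.40 and 5.70 in anti-PDL1, 4.77, 3.31, 4.02 and 4.59 in exercise, and 4.88, 4.01, 4.86 and 5.41 in control tumours. For Clock, each combination library lay above each exercise library, and the other pairs of groups overlapped.

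Among the Per genes, which encode inhibitors of the activator pair, Per1 varied most in level. Per1 (chromosome 11, 69095108 to 69109965) measured 17.4, 20.3, 11.7 and 19.1 FPKM in the combination, 16.1, 11.8, 29.9 and 44.4 in anti-PDL1, 31.3, 19.7, 23.6 and 37.9 in exercise, and 11.95, 23.88, 17.82 and 12.97 in control tumours. The highest values stood in anti-PDL1 library 4 and exercise library 4, and in each of these groups 2 libraries lay above the highest control. Per2 (chromosome 1, 91415977 to 91459351) measured 3.30, 2.37, 2.15 and 2.38 FPKM in the combination, 2.03, 1.76, 2.20 and 5.56 in anti-PDL1, 2.66, 1.89, 2.89 and 3.00 in exercise, and 1.21, 3.33, 2.02 and 2.00 in control tumours. The anti-PDL1 mean of 2.89 ± 1.79 FPKM (SD, n = 4) rested on library 4. Per3 (chromosome 4, 150997018 to 151044707) ranged from 4.25 to 6.64 FPKM in the combination, from 3.93 to 8.56 in anti-PDL1, from 5.22 to 6.89 in exercise and from 4.20 to 6.22 in control tumours, and its groups overlapped.

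The Cry genes encode the stronger repressors of the loop. Cry2 (chromosome 2, 92403646 to 92434085) measured 9.36, 8.33, 6.91 and 8.09 FPKM in the combination, 8.83, 8.65, 9.40 and 8.45 in anti-PDL1, 7.78, 7.66, 8.44 and 9.92 in exercise, and 6.46, 7.17, 7.71 and 7.19 in control tumours. Each anti-PDL1 library lay above each control library, and in both the combination and the exercise group the libraries overlapped the control range. Cry1 (chromosome 10, 85131700 to 85185054) ranged from 8.57 to 10.5 FPKM in the combination, from 8.59 to 13.4 in anti-PDL1, from 7.46 to 10.2 in exercise and from 8.46 to 10.4 in control tumours. Cry1 was above Cry2 in 13 of 16 libraries.

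Of the repressors that act on Arntl, Nr1d1 (chromosome 11, 98767932 to 98775377) measured 28.5, 27.5, 30.9 and 12.2 FPKM in the combination, 22.8, 26.4, 35.2 and 54.5 in anti-PDL1, 11.7, 34.0, 39.9 and 22.7 in exercise, and 28.3, 26.6, 17.1 and 19.9 in control tumours. Exercise library 1 and combination library 4 were the lowest, and the range within the exercise group alone was wider than the distance between any pair of group means. Nr1d2 (chromosome 14, 18204056 to 18239106) was steadier, between 10.98 and 14.8 FPKM in the combination, 12.9 and 18.3 in anti-PDL1, 12.2 and 13.4 in exercise, and 11.9 and 15.5 in control tumours. Nr1d1 lay above Nr1d2 in 15 of 16 libraries, the exception being exercise library 1. The output factor Dbp (chromosome 7, 45705100 to 45710203) measured 17.98, 13.32, 10.8 and 5.84 FPKM in the combination, 11.97, 7.09, 12.92 and 24.23 in anti-PDL1, 9.55, 12.7, 17.7 and 9.99 in exercise, and 8.98, 17.0, 7.33 and 9.37 in control tumours. High and low libraries of Dbp occurred in every group.

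Several of these genes share exons with a gene on the opposite strand in GENCODE M21. Sphk2 covers 539 of 2993 exonic bases of Dbp (18.0%) and Thra 263 of 3077 of Nr1d1 (8.5%), while D930015M05Rik covers 4.7% of Cry2 and Gm45355 0.4% of Arntl. Whether the authors' counting used strand is not given in the sources used here, so reads from the shared parts cannot be told apart. Sphk2 was 10.7 FPKM in anti-PDL1 library 4, where Dbp was highest, and had Pearson's r = -0.27 and Spearman's rho = -0.28 with Dbp over the 16 libraries. Thra had r = 0.19 and rho = 0.26 with Nr1d1.

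Differences between groups were tested with limma on log2(FPKM + 1), a scale that understates the change of low genes, with Benjamini-Hochberg adjustment over the 11868 genes that reached 1 FPKM in 4 or more libraries. All 10 clock genes were tested. No clock gene passed an adjusted p of 0.05 in any comparison. In bulk tissue such as this, fewer cells of a type and less RNA per cell cannot be told apart.

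For anti-PDL1 against control, 0 of 10 passed in limma, where 0.253% of all tested genes did, and 1 of 10, Cry2, had an unadjusted p under 0.05, where 23.5% of all genes did. The 10 genes had a median log2 difference of 0.20 with 9 of 10 above 0, beside a median of -0.04 over all tested genes, of which 42.3% were above 0. This count rested in part on anti-PDL1 library 4: without it 7 of 10 were above 0, the median was 0.04, Per2 and Per3 turned to -0.03 and -0.10, and Cry1 stood at 0.0011. Cry2 averaged 8.83 ± 0.409 FPKM in anti-PDL1 and 7.13 ± 0.513 in control tumours (SD, n = 4 each), a log2 difference of 0.28 with a standard error of 0.10 and an adjusted p of 0.124 in limma. It was the 1 clock gene whose groups did not overlap here, as was true of 10.8% of all tested genes. Nr1d1 averaged 34.7 ± 14.2 FPKM in anti-PDL1 and 23.0 ± 5.33 in control tumours, a log2 difference of 0.52 with a 95% confidence interval from -0.28 to 1.32. For Per1, at 25.6 ± 14.8 and 16.7 ± 5.46 FPKM in the same groups, it was 0.46, from -0.28 to 1.21. Dbp had a difference of 0.31, from -0.45 to 1.08, Nr1d2 one of 0.15, from -0.08 to 0.38, and Arntl one of -0.03, from -0.29 to 0.23. Without anti-PDL1 library 4 the anti-PDL1 means became 28.1 ± 6.40 FPKM for Nr1d1, 19.3 ± 9.49 for Per1 and 10.7 ± 3.13 for Dbp (SD, n = 3). The log2 differences were then 0.28, 0.15 and 0.02, and that of Cry2 was 0.29. The sum of 6 T cell markers was 5.06 to 16.2 FPKM in anti-PDL1 and 2.12 to 4.5 in control tumours. Of these markers Nkg7 had groups that did not overlap, at 2.49 to 7.13 FPKM in anti-PDL1 and 0.51 to 1.48 in control tumours. The groups overlapped for Cd3e, Cd3d, Cd3g, Cd8a and Cd4, and Cd4 averaged 0.465 and 0.468 FPKM. Hypoxia genes summed to 1929 to 3418 FPKM over 12 genes in anti-PDL1 and 1705 to 1881 in control tumours, with 12 of 12 log2 differences above 0 and a median of 0.67. Macrophage markers had 0 of 6 above 0 and a median of -1.23, with overlapping sums of 126 to 317 FPKM in anti-PDL1 and 172 to 837 in control tumours. Cell cycle genes summed to 286 to 348 FPKM over 10 genes in anti-PDL1 and 404 to 588 in control tumours, and this sum had r = -0.66 and rho = -0.66 with Cry2 over the 16 libraries, r = -0.605 without the 2 farthest sums and r = -0.40 within groups. The part of these lists in the clock values was not tested.

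Exercise alone was compared with control next. Per1 averaged 28.1 ± 8.11 FPKM in exercise and 16.7 ± 5.46 in control tumours (SD, n = 4 each), a log2 difference of 0.73 with a confidence interval from -0.01 to 1.47 and an adjusted p of 0.286 in limma. Cry2 averaged 8.45 ± 1.04 and 7.13 ± 0.513 FPKM in the same groups, a difference of 0.21 ± 0.10 (standard error), with an adjusted p of 0.265 in limma. Per3 had a difference of 0.22, from -0.15 to 0.59, Dbp one of 0.23, from -0.53 to 1.00, Clock one of -0.17, from -0.40 to 0.07, and Arntl one of -0.15, from -0.41 to 0.11. With limma 0 of 10 genes passed, as did 0% of all tested genes, and 1 of 10, Cry2, had an unadjusted p under 0.05, against 18.0% of all genes. None of the 10 had groups that did not overlap, against 7.72% of all genes. The median difference was 0.17, with 6 of 10 above 0, beside -0.02 over all genes, of which 46.2% were above 0. With single libraries left out 5 to 7 of 10 were above 0, and without exercise library 3 the median was -0.003. The sum of 4 skin keratinocyte markers was 35.7 to 73.2 FPKM in the exercise libraries and 9.95 to 35.4 in the control libraries. Nearly all of it was Krt14, at 34.1 to 71.9 FPKM in exercise and 9.14 to 34.5 in control tumours. Krt5, Krt10 and Dsp reached at most 0.41, 1.5 and 0.03 FPKM in the 16 libraries. Over the 16 libraries this sum had r = 0.65 and rho = 0.61 with Cry2 and r = 0.17 and rho = 0.18 with Per1, or r = 0.58 and 0.39 without the 2 farthest sums and r = 0.49 and -0.18 within groups, and its part in either result was not tested.

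In the combination, Per1 averaged 17.1 ± 3.77 FPKM, against 25.6 ± 14.8 in anti-PDL1, 28.1 ± 8.11 in exercise and 16.7 ± 5.46 in control tumours (SD, n = 4 each). Against control, 0 of 10 genes passed in limma (0% of all tested genes did), 0 of 10 had an unadjusted p under 0.05 (8.20% of all genes) and 0 of 10 had groups that did not overlap (3.83% of all genes). The median difference was 0.06, with 8 of 10 above 0 beside 41.9% of all genes, and 5 to 9 of 10 were above 0 with single libraries left out. Cry2 had a difference of 0.17, from -0.04 to 0.38, Per2 one of 0.21, from -0.31 to 0.73, and Arntl one of -0.14, from -0.40 to 0.12. With single libraries left out the Cry2 difference ran from 0.11 to 0.24. The highest value came without combination library 3, the Per1 and Cry2 low of the group.

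Adding exercise to the antibody, the combination against anti-PDL1, gave 10 of 10 differences below 0, with a median of -0.11 beside 0.02 over all genes, of which 55.2% were above 0. Without anti-PDL1 library 4, 5 of 10 were below 0 and the median was -0.03. Clock, Per2, Per3, Cry1 and Dbp then turned, to 0.02, 0.24, 0.11, 0.08 and 0.10. This comparison and that of anti-PDL1 with control share the anti-PDL1 libraries with opposite sign. Nr1d2 had a difference of -0.19 ± 0.11 (standard error), Nr1d1 one of -0.47 ± 0.37 and Per1 one of -0.40 ± 0.35. Without the same library they were -0.10, -0.23 and -0.09. In limma 0 of 10 passed (0% of all genes), 0 of 10 had an unadjusted p under 0.05 (3.94% of all genes), and 0 of 10 had groups that did not overlap (2.24% of all genes).

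Adding the antibody to exercise was read from the combination against exercise. Clock averaged 5.05 ± 0.142 FPKM in the combination and 4.17 ± 0.658 in exercise tumours (SD, n = 4 each), a log2 difference of 0.24 with a confidence interval from 0.00 to 0.47 and an adjusted p of 0.36 in limma. Clock was the 1 gene of 10 with an unadjusted p under 0.05 (13.6% of all genes) and the 1 of 10 whose groups did not overlap (6.94% of all genes). Per1 had a difference of -0.67, from -1.41 to 0.07, and 3 of 4 combination libraries lay below the lowest exercise library. Per3 had one of -0.21, from -0.57 to 0.16. Of the 10 genes 4 had a difference above 0, or 3 to 7 with single libraries left out, beside 46.1% of all genes, and in limma 0 of 10 passed, as did 0% of all genes.

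**Figure D2:**
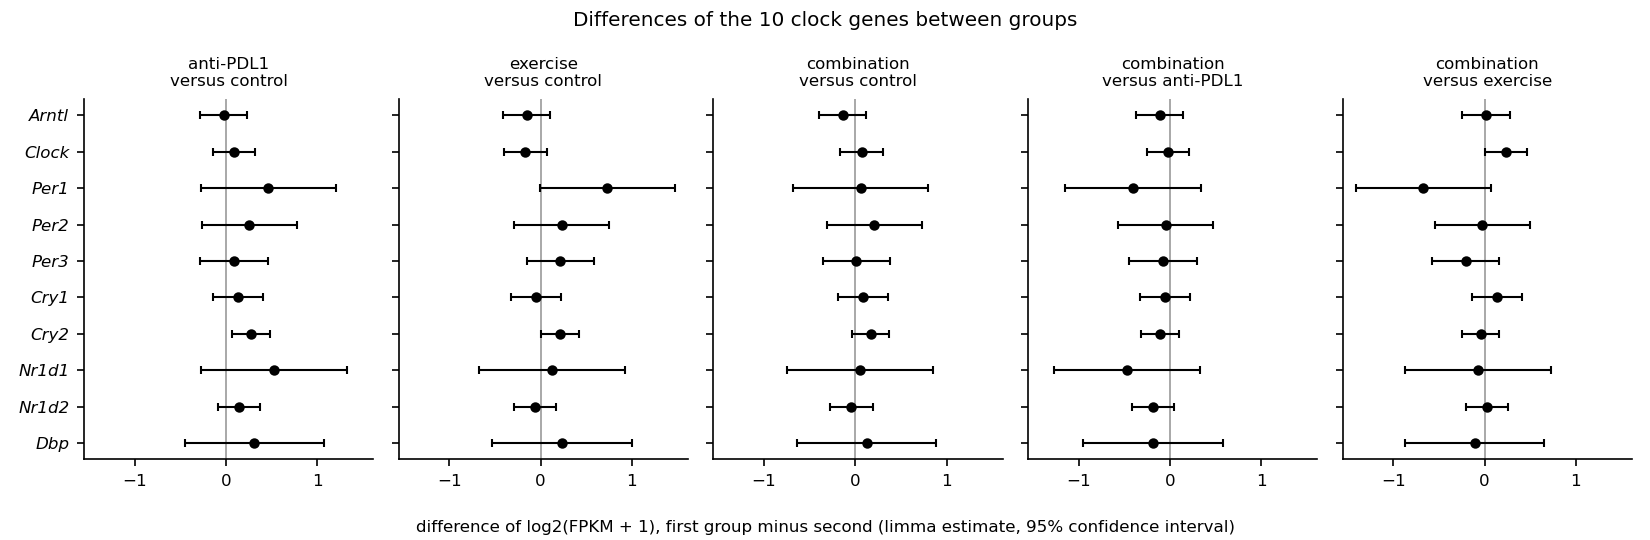
Differences of log2(FPKM + 1) between groups (horizontal axis, first-named group minus second) for the 10 clock genes, with points for the limma estimate and bars for its 95% confidence interval. The intervals of Per1, Nr1d1 and Dbp are the widest, and those that leave 0 out, for Cry2 in anti-PDL1 and in exercise against control and for Clock in the combination against exercise, belong to genes whose adjusted p stayed above 0.05.

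Whether exercise acted differently with and without the antibody was tested as an interaction. The difference of Per1 was 0.73 for exercise against control and -0.40 for the combination against anti-PDL1, so that the interaction was -1.13 ± 0.49 (standard error), with an adjusted p of 0.377 in limma. For Cry2 it was -0.32 ± 0.14, with an adjusted p of 0.372 in limma. Nr1d1 had an interaction of -0.59 ± 0.53 and Dbp one of -0.42 ± 0.51. The median over the 10 genes was -0.29, with 2 of 10 above 0, beside 0.03 and 54.9% over all tested genes. Without anti-PDL1 library 4 the median was -0.07, with 4 of 10 above 0, and the interaction of Per1 was -0.82. Per1 and Cry2 were the 2 of 10 genes with an unadjusted p under 0.05, against 13.1% of all genes, while 0 of 10 passed after adjustment, as did 0% of all genes. In the test of any difference among the 4 groups 0 of 10 passed in limma and 0 of 10 had an unadjusted p under 0.05, against 0.135% and 20.8% of all genes, with Cry2 at an adjusted p of 0.258.

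A single library held most of the highest values of the clock genes and none of their lowest. Anti-PDL1 library 4 was the highest of the 16 for 8 of the 10 clock genes, namely Clock, the Per genes, Cry1, both Nr1d genes and Dbp, and it was the highest for 8.64% of all tested genes. The exceptions were Arntl, highest in control 4, and Cry2, highest in exercise 4. The same library was the highest for 11 of 12 hypoxia genes and 3 of 3 red blood cell genes and the lowest for 6 of 10 cell cycle genes. It was the lowest of the 16 for 24.3% of all tested genes, while each other library was the lowest for between 1.30% and 10.9%. Its red blood cell sum was 2818 FPKM, against at most 554.6 in the other libraries.

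Across the 16 libraries some of the genes moved together and others did not. These correlations are descriptions over libraries that share groups, given without p-values because the genes were chosen with results of these data known, and 45 pairs were computed. Pearson's r was above 0 in 37 pairs, with a median of 0.31. The 3 Per pairs and Nr1d1 with Dbp had the highest r. The Per pairs stood at r = 0.75 and rho = 0.71 for Per1 and Per2, r = 0.80 and rho = 0.77 for Per1 and Per3, and r = 0.79 and rho = 0.66 for Per2 and Per3. With the 2 libraries farthest out in the first-named gene left out, r was 0.59, 0.63 and 0.57. Nr1d1 and Dbp had r = 0.75 and rho = 0.73, with r = 0.74 without the 2 libraries farthest out in Nr1d1 and 0.66 without anti-PDL1 library 4, where Dbp was highest. Removing the group means first left these values at 0.80, 0.78, 0.82 and 0.75. Per1 and Nr1d1 were nearly unrelated, at r = 0.17 and rho = 0.13, with r = -0.11 without the 2 farthest libraries. Arntl and Nr1d1, gene and repressor, had r = 0.34 and rho = 0.34, and Arntl and Dbp r = 0.09 and rho = 0.21, values that were 0.46 and 0.21 for r without the 2 farthest libraries. All 8 pairs with r below 0 held Arntl or Clock. The lowest was Arntl with Per1, at r = -0.29 and rho = -0.10, and r = 0.02 without the 2 farthest libraries. Clock and Dbp had r = -0.21 and rho = -0.21, with r = -0.10 without the 2 farthest libraries of Clock and r = -0.51 without anti-PDL1 library 4. The ratio of Dbp to Arntl FPKM ran from 0.418 in anti-PDL1 library 2 to 1.60 in anti-PDL1 library 4.

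**Figure D3:**
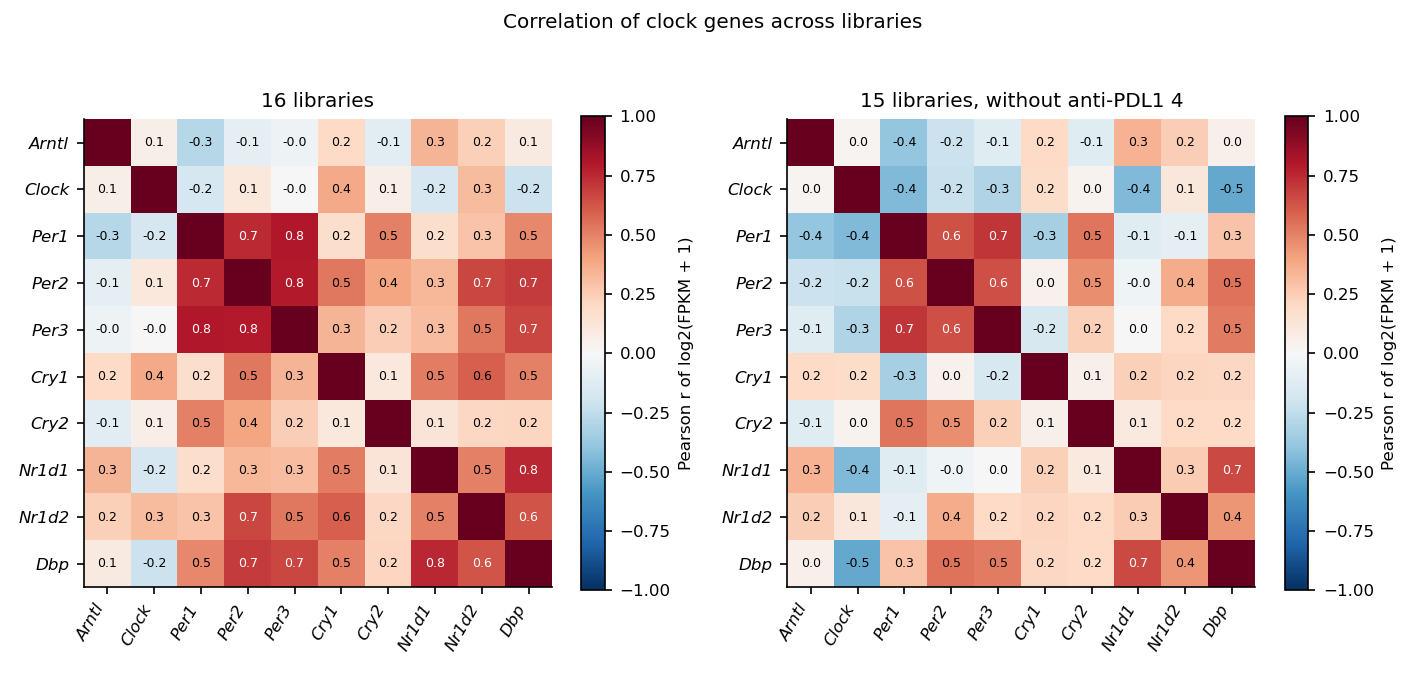
Pearson's r of log2(FPKM + 1) between each pair of the 10 clock genes (colour scale from -1 to 1, value in each cell), over 16 libraries on the left and over the 15 without anti-PDL1 library 4 on the right. The block of Per1, Per2 and Per3 (0.75 to 0.80 on the left, 0.63 to 0.71 on the right) and the pair Nr1d1 and Dbp (0.75 and 0.66) keep the strongest colours in both.

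Among all tested genes, Nr1d1 ranked 25 of 11867 in its correlation with Dbp, Per2 74, Per3 122 and Nr1d2 203. Without anti-PDL1 library 4 the ranks were 85, 305, 379 and 749. The 5 genes outside the clock with the highest r with Dbp over the 16 libraries were Adgrg1 at 0.87, Card19 at 0.84, Csrnp1 at 0.84, Spg21 at 0.82 and Tmod1 at 0.82. For Arntl they were Ano6 at 0.77, Ccdc126 at 0.70, Pi4k2a at 0.68, Bicd2 at 0.66 and Ptpn9 at 0.66.

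Nr1d1 tracked the hypoxia genes across tumours. The summed FPKM of 12 hypoxia genes, among them Car9, Vegfa and Slc2a1, ran from 1297 to 2383 in the combination, 1929 to 3418 in anti-PDL1, 1282 to 2471 in exercise and 1705 to 1881 in control tumours. Most of this sum came from Ldha and Pgk1, at 856 ± 172 and 539 ± 124 FPKM (SD, n = 16), while Car9 averaged 17.9 ± 9.64. The 2 libraries in which Nr1d1 was lowest, exercise 1 and combination 4, had the lowest sums, and anti-PDL1 library 4 had the highest of both. Over the 16 libraries r was 0.90 and rho 0.84, r was 0.80 without the 2 libraries with the farthest sums and 0.92 within groups, and Nr1d1 ranked 26 of 11856 genes outside the list. Cry1 had r = 0.70 and rho = 0.70, and Dbp r = 0.69 and rho = 0.63, while Per1 had r = 0.18 and rho = 0.02 and Arntl r = 0.33 and rho = 0.39. Without the same 2 libraries r was 0.51 for Cry1, 0.58 for Dbp, 0.04 for Per1 and 0.14 for Arntl. Nr1d1 also had r = 0.82 and rho = 0.85 with the sum of 9 immediate early genes, r = 0.79 and rho = 0.77 with that of 10 glucocorticoid targets, r = 0.74 and rho = 0.73 with that of 3 red blood cell genes, and r = -0.65 and rho = -0.64 with that of 10 cell cycle genes. Without the 2 libraries with the farthest sums these r were 0.80, 0.69, 0.49 and -0.65, so the relation to red blood cell genes rested in part on those libraries. Most of the glucocorticoid sum came from Mt1 and Mt2, at 1702 ± 653 and 1411 ± 612 FPKM (SD, n = 16). No other gene of that list exceeded 80.65 FPKM in any library, so its r describes mainly Mt1 and Mt2. The other members differed: in exercise library 1, where Nr1d1 was lowest, Tsc22d3 was at its highest while Ddit4 and Errfi1 were at their lowest. In all, 80 such relations between a clock gene and a list were computed, and which of these lists bears on Nr1d1 was not tested.

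**Figure D4:**
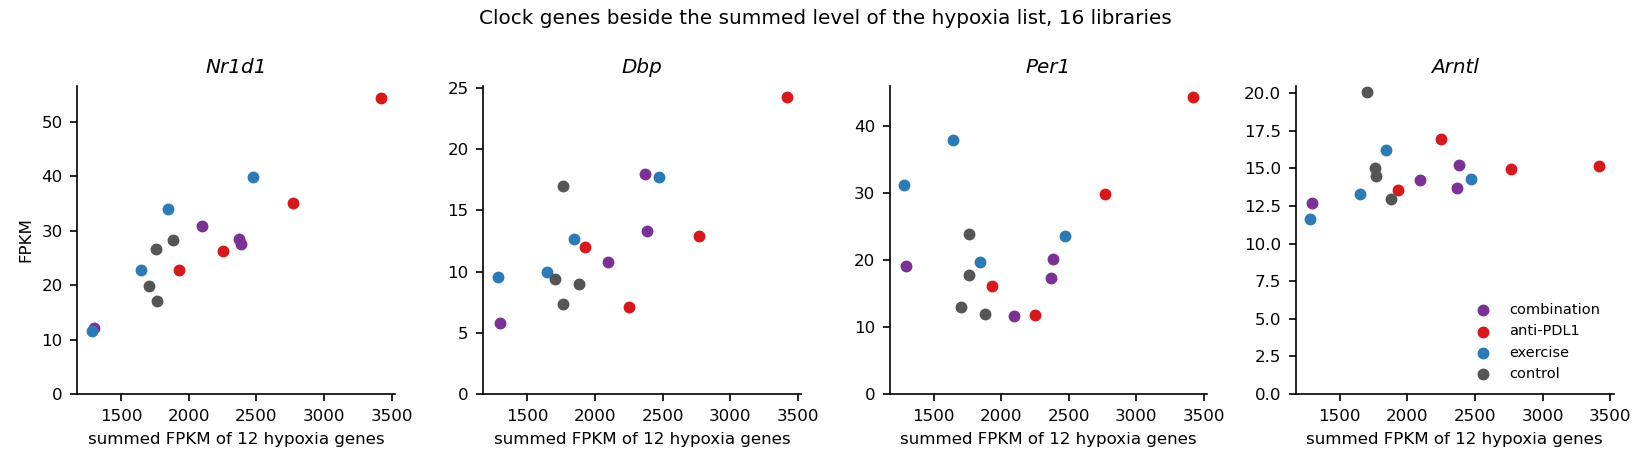
FPKM of Nr1d1, Dbp, Per1 and Arntl (vertical axes, from 0) against the summed FPKM of 12 hypoxia genes (horizontal axes) in 16 libraries, coloured by group. Nr1d1 climbs along the axis (r = 0.90), Dbp more loosely (r = 0.69), and Per1 shows high values at both low and high sums (r = 0.18).

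Of 12 other listed genes of the loop, 7 reached the level for testing. Rora and Rorb, which encode activators at ROR elements, were scarce, with maxima of 0.82 and 0.04 FPKM, as were Npas2, which can replace Clock, at up to 0.45, and Hlf, a relative of Dbp, at up to 0.46. Tef, the other relative of Dbp, was well expressed at 20.6 ± 3.81 FPKM (SD, n = 16), and so was Bhlhe40, a repressor that binds E-boxes, at 61.6 ± 23.7. In each of the 5 pairwise comparisons and in the interaction, 0 of the 7 genes passed in limma, beside at most 0.253% of all tested genes. For anti-PDL1, exercise and the combination against control, 2, 2 and 0 of the 7 had an unadjusted p under 0.05. The shares of all genes were 23.5%, 18.0% and 8.20%. For the combination against anti-PDL1 and against exercise and for the interaction, 0, 1 and 0 did, beside 3.94%, 13.6% and 13.1% of all genes. Nfil3, the opponent of Dbp at D-boxes, measured 6.55, 8.03, 9.84 and 6.73 FPKM in exercise and 12.44, 12.4, 10.97 and 10.61 in control tumours. Each exercise library lay below each control library, and 7.72% of all tested genes had groups that did not overlap in this comparison. The log2 difference of Nfil3 was -0.53 ± 0.14 (standard error), with an adjusted p of 0.181 in limma. In the combination Nfil3 measured 14.6, 10.8, 13.4 and 9.75 FPKM, a difference of 0.58 ± 0.14 from exercise with an adjusted p of 0.188 in limma. Tef had a difference of 0.43 ± 0.15 between exercise and control, with an adjusted p of 0.196 in limma.

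**Figure D5:**
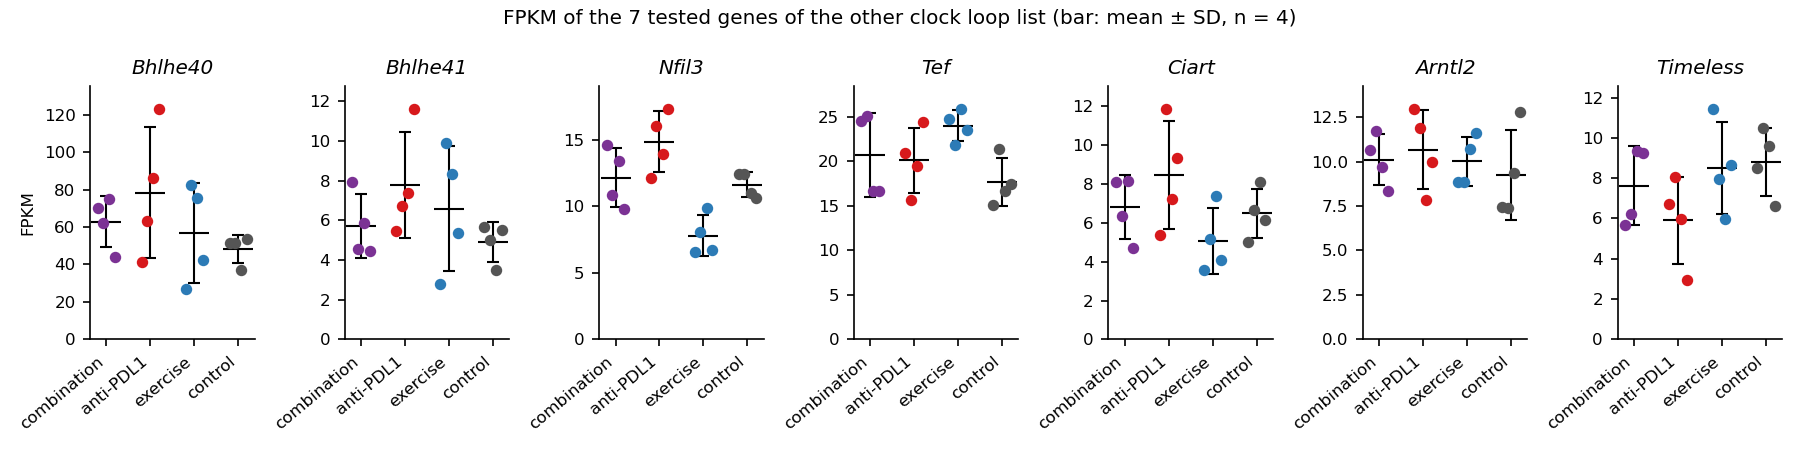
FPKM (vertical axis, from 0) of the 7 tested genes of the other clock loop list in each library by group, with bars for the mean ± SD of 4 libraries. The Nfil3 points of exercise lie between 6.55 and 9.84 FPKM, below all control points, and Bhlhe40 reaches its maximum of 123 FPKM in anti-PDL1 library 4.

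A list of 11 clock kinases, ligases and cofactors summed to between 393.6 and 458.7 FPKM, most of it from Nono at 202 ± 16.6, Csnk1e at 64.9 ± 4.98 and Csnk1d at 62.2 ± 5.18 (SD, n = 16). Some low members varied more, such as Usp2, a deubiquitinase, which ran from 1.18 to 3.44 FPKM, whereas Btrc stayed between 6.45 and 8.69 FPKM. Csnk1d, which encodes a kinase of the Per proteins, had a log2 difference of 0.27 ± 0.07 (standard error) for exercise against control, with an adjusted p of 0.181 in limma. In each of the same tests 0 of the 11 passed in limma. In the order given for the other loop genes, 2, 1, 0, 1, 2 and 3 had an unadjusted p under 0.05. The shares of all genes in that order were 23.5%, 18.0%, 8.20%, 3.94%, 13.6% and 13.1%. Of 8 listed output genes 7 were tested, and again 0 passed. In the same order, 1, 3, 1, 2, 1 and 2 of the 7 had an unadjusted p under 0.05, beside the same shares of all genes. Nampt, which encodes an enzyme of NAD synthesis, had a difference of 0.50 ± 0.14 for anti-PDL1 against control, with an adjusted p of 0.0783 in limma, and Wee1, a kinase that holds back mitosis, one of -0.43 ± 0.13 for the combination against anti-PDL1, with an adjusted p of 0.968 in limma.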

How the data were processed

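RNA-seq values of 16 tumour libraries, 4 in each of 4 groups taken from the sample titles, were used. Values deposited by the authors are FPKM with 2 decimals for 18480 entries per library, per the file headers. The submitters' processing notes name HISAT, Bowtie2 and GRCm38.p6 without versions, and the program that computed FPKM is not given in the sources used here. Whole reads could not be recovered: of 18206 low values in 1386 genes, 42.4% were whole multiples, to within 0.15, of the smallest value seen for the gene. The depth is therefore unknown, and no counting interval is given. No 2 libraries were identical.

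A single limma fit (version 3.58.1, R 4.3.3, with trend and robust empirical Bayes) used log2(FPKM + 1), with the group as its term. It covered the 11868 genes that reached 1 FPKM in 4 or more libraries. A check of the code on simulated data drew genes independently and planted changes larger than the pairwise clock differences of this fit. That check therefore does not measure power for the clock genes. P-values were adjusted by Benjamini-Hochberg over all tested genes at 0.05. The 10 genes, the other lists and the alternatives were chosen with earlier results of these data known. All 10 clock genes were named, then up to 4 members of other lists by smallest p, and the 5 genes most correlated with Dbp and with Arntl; hypoxia and cell type lists were given as sums. Same-numbered libraries of different groups had correlations of their deviations from the group means between -0.62 and 0.34, so replicate numbers were not taken to pair them. Promoter sequences came from RefSeq, exons from GENCODE M21. Alternatives were other empirical Bayes settings, normalizations, filters, pseudocounts of 0.1 and 0.01, only the groups compared, a replicate block, library weights and leaving out each library; the omission of both outlying controls, 1 and 2, was chosen once the data had been seen. Python 3.11.15 and matplotlib 3.10.9 drew the figures.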

Additional observations from a re-analysis of the deposited data

Results flagged for a closer look

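Among the 40 combinations of a clock gene and a group, 2 had a library far from the other 3 by Dixon's test, and chance gives about 1 in 20. Per2 at 5.56 FPKM in anti-PDL1 library 4 stood apart from 1.76 to 2.20 FPKM in the other libraries of that group. Cry1 at 10.42 FPKM in control 3 stood apart from 8.46 to 8.63 FPKM in the other controls.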

How the results depend on the processing

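In the 28 alternative settings, of which the interaction and the test of any difference could take 27, the count of clock genes past an adjusted p of 0.05 in limma was 0 of those tested in each of the 7 tests, replicate block included, where the lowest adjusted p was 0.165, for Cry2 in anti-PDL1 against control. The lowest of any setting was 0.0518, for Cry2 in exercise against control with library weights, where 19.2% of all tested genes passed. Without exercise library 1, 5.15% of genes passed in that comparison and 0 clock genes did. For anti-PDL1 against control, 30 genes of all tested passed, against 15 with the replicate block, 835 with library weights, 117 with quantile normalization, 77 with median centring, 51 with rescaled sums, 8 with no filter, 4 without controls 1 and 2, and 6 (without anti-PDL1 library 2, or without control 2) to 767 (without control 4) with single libraries left out. A mean of at least 5 FPKM left Per2 and Clock untested, and a fit to only the groups compared gives no interaction or test of any difference. Of the 60 differences of the 10 genes over 6 comparisons, 35 kept their sign in every setting and 25 turned in at least 1. Without anti-PDL1 library 4, 2 of 10 turned for anti-PDL1 against control and 5 of 10 for the combination against anti-PDL1. The difference of Arntl for anti-PDL1 against control was 0.023 with quantile normalization, 0.020 with median centring and 0.073 with library weights, and between -0.11 and 0.093 with single libraries left out. The differences of Nr1d1, Per1 and Dbp for anti-PDL1 against control ran from 0.28 to 0.69, 0.15 to 0.76 and 0.02 to 0.57 with single libraries left out. Without controls 1 and 2, a setting added after seeing the data, the difference of Nr1d1 for anti-PDL1 against control was 0.80 (limma adjusted p 0.637), that of Cry2 in the same comparison 0.22 (0.63) and that of Per1 for exercise against control 0.80 (0.555). Since the depth is unknown, the counting error of low genes such as Per2 could not be computed.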
